A study of Mus musculus with 18 samples.

Results

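The genes described here are 10 genes of the elastic fibre, the core protein elastin and the proteins known to build its scaffold or to place it there, in lipochondrocytes of the mouse ear. They were found by symbol in the deposited expression table. Eln, Fbn1, Fbn2, Mfap2, Mfap5, Mfap4, Fbln5, Efemp2 and Emilin1 have 1 row each and Ltbp4 has 2, so they fill 11 of 46983 rows. Lipochondrocytes are the lipid-storing chondrocytes of the ear cartilage plate. RNA of these cells was sequenced on days 8, 10, 13, 21 and 33 after birth (named P8 to P33), with adipocytes of inguinal fat at P33 as the comparison cell type, in 3 libraries per group and 18 in all. All groups were labelled Wnt1-Cre2;TdTomato on a C57BL/6 background. In this line the Cre driver marks descendants of the neural crest with a red fluorescent protein. Cells of the P8, P10 and P13 groups were released with collagenase and sorted for high TdTomato. The P21 and P33 lipochondrocytes were dissected so as to avoid fat cells and were collected, like the P33 adipocytes, as the fraction that floated after centrifugation. The labels do not say whether a library was 1 animal or a pool. The p-values thus weigh differences against the spread between libraries, which may not be that between animals.

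Elastic fibres let the external ear bend and spring back. Soluble tropoelastin is secreted, gathers on a scaffold of fibrillin microfibrils with the help of fibulins and latent TGF-beta binding proteins, and is then cross-linked by lysyl oxidases into a polymer that turns over very slowly. Most of the fibre is laid down during growth, and the external ear is the standard example of elastic cartilage.

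Levels are FPKM, the authors' fragment counts scaled by gene length and library size. Differences are of log2(FPKM + 1), given with a standard error (SE) from 1 limma model of all 18 libraries. A gene is called when its p, adjusted by Benjamini-Hochberg over the 13815 genes tested, is below 0.05. All 10 genes passed the filter on low values. Libraries held 12461965 to 27640142 total reads, of which 73.19% to 84.44% aligned. All 10 chondrocyte markers examined were detected in lipochondrocytes at every stage and summed to 17663 to 27819 FPKM per library. In the adipocyte libraries they summed to 1.4 to 2.3 FPKM, with Acan, Col9a1 and Chad at 0. The 8 adipocyte markers summed to 1 to 26 FPKM in lipochondrocytes and to 85578 to 91163 FPKM in adipocytes. Markers of endothelium summed to 644.4 to 682.6 FPKM in adipocyte libraries and to 2.7 to 13.6 FPKM in lipochondrocytes. Those of smooth muscle and pericytes summed to 107.6 to 108.8 FPKM in adipocyte libraries and to 17.3 to 59.2 FPKM in lipochondrocytes. The part of such cells in the adipocyte values was not tested. In bulk RNA, fewer cells of a type and less RNA per cell cannot be told apart.

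Eln, which encodes tropoelastin (ENSMUSG00000029675.12, minus strand, chr5:134702593-134747323 of GRCm38), was among the most abundant transcripts of young lipochondrocytes. Its level was 26701, 23874 and 33735 FPKM in the 3 libraries at P8, 36420, 26687 and 24552 FPKM at P10, and 24085, 23309 and 25075 FPKM at P13. At P21 it was 14160, 11787 and 10065 FPKM and at P33 2366, 3311 and 1510 FPKM, while the adipocyte libraries had 3.72, 3.37 and 4.88 FPKM. The 3 sorted stages overlapped one another, and P21, P33 and adipocytes each lay apart from the group before. By rank among all rows, Eln was between the third and the fifth most abundant gene in each sorted library. It ranked 10 to 17 at P21, 53 to 106 at P33 and 7119 to 8183 in adipocytes. The highest stage mean, at P10, was 12.2 times the lowest, at P33, and the P33 mean was 600.5 times the adipocyte mean.

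Of the summed FPKM of the 10 genes, Eln made up 90.2% to 94.6% in the P8, P10 and P13 libraries. Its share was 73.3% to 89.1% at P21, 43.8% to 77.3% at P33 and 4.73% to 5.82% in adipocytes. The other 9 genes together held 1942 to 2343 FPKM at P8, 2217 to 2669 at P10, 1536 to 1869 at P13, 1742 to 3662 at P21 and 836.1 to 1940 at P33. Their sums at P21 overlapped those of the sorted stages. At P33 replicate 3, with 1940 FPKM, did so, while the other P33 libraries, at 836.1 and 975 FPKM, lay below every sorted library. Eln itself was below every sorted library in all 6 buoyant ones. In adipocytes the same 9 genes summed to 67.9 to 78.9 FPKM.

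**Figure D1:**
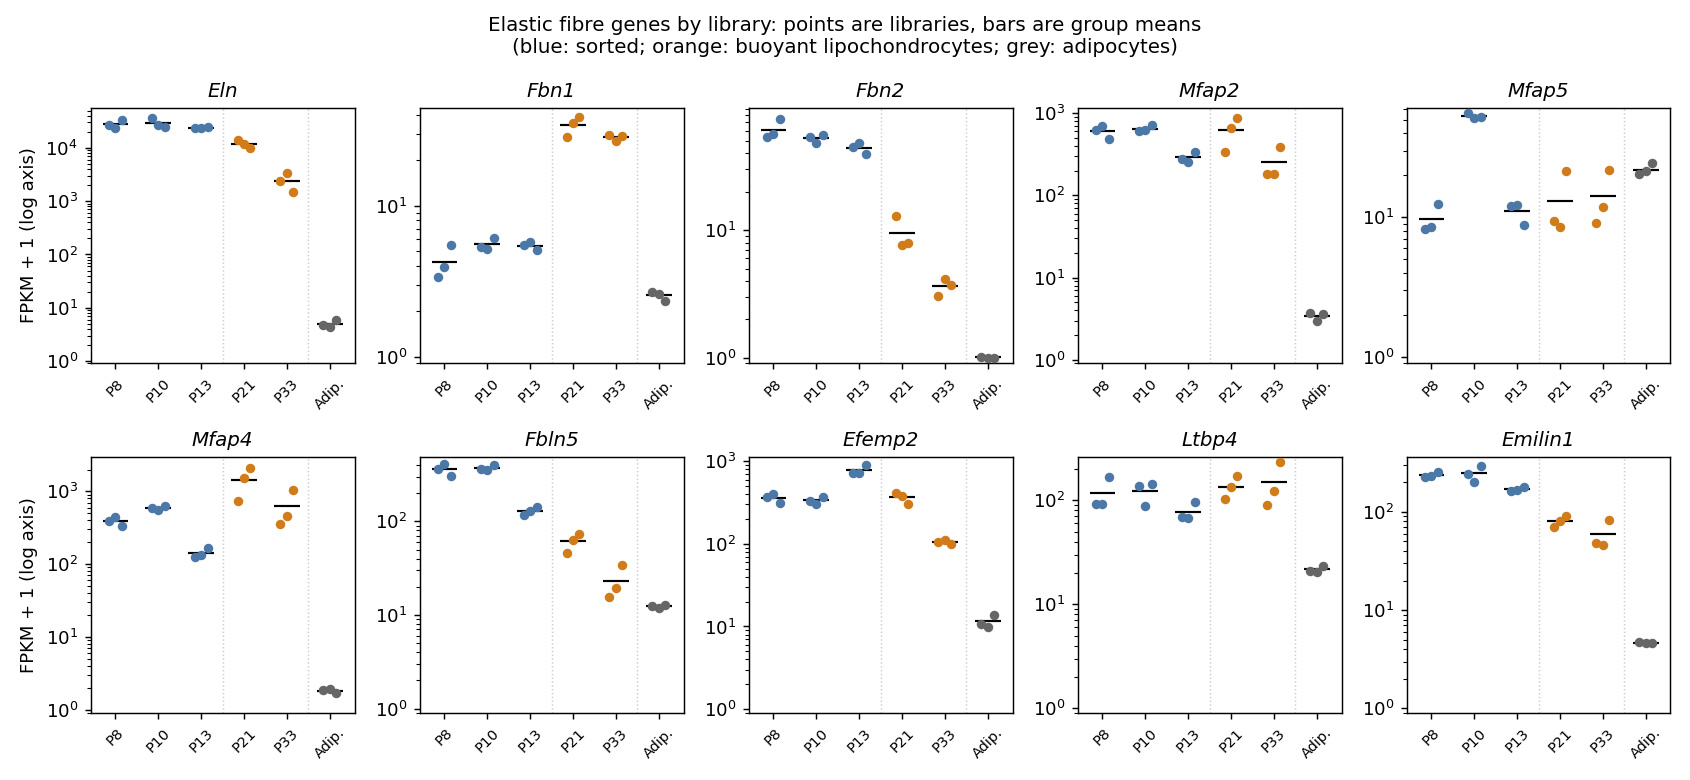
Level of each of the 10 genes in every library, as FPKM + 1 on a log axis, with 1 point per library and a bar at the group mean; blue points are sorted lipochondrocytes (P8, P10, P13), orange points buoyant lipochondrocytes (P21, P33) and grey points adipocytes, and vertical scales differ between panels. Eln, Fbn2, Mfap2, Fbln5, Efemp2 and Emilin1 had their lowest stage mean at P33. Fbn1 was above its sorted-stage level at P21 and P33, Mfap5 stood out at P10 and Efemp2 at P13.

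The fibrillins form the microfibril backbone. Fbn2 (ENSMUSG00000024598.8, minus strand, chr18:58008623-58210487) encodes the fibrillin known mainly from developing tissue. It was at 52.97, 55.72 and 72.88 FPKM at P8, 53.02, 47.23 and 55.18 FPKM at P10 and 44.3, 46.97 and 38.7 FPKM at P13. It was at 12.02, 6.68 and 6.91 FPKM at P21 and 2.05, 3.12 and 2.7 FPKM at P33. Its 5 stage means were thus in descending order with age, and neighbouring stages overlapped for P8 and P10 and for no other pair. In the adipocyte libraries it was listed at 0.01, 0 and 0 FPKM.

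Fbn1, the fibrillin of mature microfibrils (ENSMUSG00000027204.13, minus strand, chr2:125300594-125507993), was lower at the sorted stages than at the buoyant ones. It was at 2.36, 2.93 and 4.45 FPKM at P8, 4.32, 4.2 and 5.09 FPKM at P10 and 4.45, 4.76 and 4.1 FPKM at P13. At P21 it was at 27.33, 34.2 and 37.88 FPKM, at P33 at 28.54, 26.05 and 28.13 FPKM, and in adipocytes at 1.67, 1.61 and 1.35 FPKM. The 6 buoyant lipochondrocyte libraries all lay above the 9 sorted ones, P21 and P33 overlapped, and the adipocytes lay below every lipochondrocyte library. Age and isolation both changed between P13 and P21 and cannot be told apart there. Between stages isolated alike, Fbn1 was not called in the limma model (adjusted p of at least 0.102), although some alternatives given below called it.

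Per library, the ratio of Fbn2 to Fbn1 (in FPKM, per length) was 16.4 to 22.4 at P8, 10.8 to 12.3 at P10, 9.44 to 9.96 at P13, 0.182 to 0.44 at P21 and 0.0718 to 0.12 at P33. No 2 stages overlapped in this ratio, and Fbn2 was the higher of the pair in every sorted library and the lower in every buoyant one. On the log2 scale of FPKM + 1, the mean ratio was 3.03 ± 0.06 at P13 and 3.87 ± 0.12 at P8 (SD, n = 3 each), a difference of -0.85. It was -2.99 ± 0.28 at P33 and -1.87 ± 0.65 at P21, a difference of -1.12 (exact permutation test, two-sided, p = 0.1 for both, the smallest that 3 against 3 libraries can give). P13 and P8 were sorted alike and P33 and P21 floated alike, so both differences lie within 1 way of isolation. The change in which gene was higher fell between P13 and P21, where age and isolation both changed and cannot be told apart.

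The microfibril-associated genes moved in other patterns. Mfap2 and Mfap5 encode a pair of small glycoproteins that bind fibrillins. Mfap2 (ENSMUSG00000060572.17, plus strand, chr4:141010418-141015984) was at 483.8 to 694.3 FPKM at P8, 609.6 to 717 at P10, 257.5 to 339.8 at P13, 339 to 881.2 at P21, 181.4 to 389.3 at P33 and 1.97 to 2.7 in adipocytes. Its P13 libraries lay below those of P8 and P10, and its P21 and P33 libraries overlapped those of P13.

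Mfap5 (ENSMUSG00000030116.14, plus strand, chr6:122505845-122529290) had 54.65, 50.56 and 51.12 FPKM at P10, and P10 was its one high stage. It had 7.27, 7.51 and 11.52 FPKM at P8, 11.09, 11.31 and 7.85 FPKM at P13, 8.46, 7.57 and 20.61 FPKM at P21 and 8.12, 10.83 and 20.95 FPKM at P33. The adipocyte libraries, at 19.31, 20.36 and 23.43 FPKM, overlapped those of P21 and P33 and lay above those of P8 and P13. Mfap5 was thus the 1 gene of the 10 whose mean was higher in adipocytes than at any stage but P10. The ratio of Mfap5 to Mfap2 was 0.0108 to 0.0897 over all lipochondrocyte libraries and 7.15 to 10.3 in adipocytes. For P33 against adipocytes this was -4.14 ± 0.19 against 2.69 ± 0.21 as a log2 ratio of FPKM + 1 (difference -6.83, exact permutation p = 0.1, the smallest possible). Mfap2 was the higher of the pair in each of the 15 lipochondrocyte libraries and Mfap5 in each of the 3 adipocyte libraries. Within lipochondrocytes the log2 ratio was higher by 1.23 at P13 against P8 and by 1.45 at P33 against P21 (exact permutation p = 0.1 for both, the smallest possible). The P33 and P21 ratios did not overlap. Those of P13 and P8 were apart only with the pseudocount of 1, since the plain ratio was 0.0231 in P13 replicate 3 and 0.0238 in P8 replicate 3, and with a pseudocount of 0.1 the exact permutation p was 0.2.

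Mfap4, a glycoprotein of the fibrinogen-like family that binds elastin and fibrillin (ENSMUSG00000042436.12, plus strand, chr11:61485431-61488900), was at 393.6, 448.6 and 328.5 FPKM at P8, 593.8, 557 and 639.3 FPKM at P10 and 126.3, 134.3 and 168.2 FPKM at P13. It was at 730.7, 1550 and 2084 FPKM at P21, at 357.9, 456.9 and 1057 FPKM at P33, and at 0.84, 0.93 and 0.71 FPKM in adipocytes. P13 was its lowest stage in every library and P21 its highest by mean. The highest P21 library was 2.85 times the lowest and the highest P33 library 2.95 times the lowest, against at most 1.37 times within a sorted stage. In both groups it was replicate 3 that was highest. The same 2 libraries were the highest of their groups in Mfap2, Mfap5, Fbln5, Ltbp4 and Emilin1, and the lowest in Eln and Efemp2. They were also the highest of their groups in the sum of 14 fibroblast and perichondrium markers, at 10285 FPKM against 5624 and 8445 in the other P21 libraries, and at 9608 FPKM against 6319 and 5373 in the other P33 libraries. The chondrocyte marker sums of these 2 libraries were the highest of their groups too, at 26467 FPKM against 17663 and 24152 at P21. In P33 replicate 3 the sum was 27819 FPKM against 24388 and 22520. The same held for the marker sums of smooth muscle and pericytes, endothelium and macrophages. For adipocyte markers P21 replicate 2 was highest, at 26 FPKM, and P33 replicates 1 and 3 were both at 9.8. The part of any of these cell types in these values was not tested.

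The fibulins join elastin to the microfibrils. Fbln5 (ENSMUSG00000021186.8, minus strand, chr12:101746565-101819055) tethers elastin to microfibrils and to cell-surface integrins. Efemp2, also called fibulin-4 (ENSMUSG00000024909.14, plus strand, chr19:5473954-5482517), brings lysyl oxidase to tropoelastin. The 250 bases before the RefSeq start site of each gene (GRCm38.p6) are shown because this pair of related genes diverged in level between P10 and P13. The Fbln5 stretch is chr12:101819120-101819369 on the minus strand and the Efemp2 stretch chr19:5473696-5473945 on the plus strand. Both are written 5′ to 3′ along the gene, and capitals mark the letters GGGCGG, the GC box, or its reverse complement.
Fbln5: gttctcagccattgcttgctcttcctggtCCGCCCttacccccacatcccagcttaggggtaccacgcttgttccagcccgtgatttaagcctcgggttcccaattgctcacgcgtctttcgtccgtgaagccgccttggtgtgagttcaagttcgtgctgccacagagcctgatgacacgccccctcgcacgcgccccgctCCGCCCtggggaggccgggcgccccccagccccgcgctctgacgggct
Efemp2: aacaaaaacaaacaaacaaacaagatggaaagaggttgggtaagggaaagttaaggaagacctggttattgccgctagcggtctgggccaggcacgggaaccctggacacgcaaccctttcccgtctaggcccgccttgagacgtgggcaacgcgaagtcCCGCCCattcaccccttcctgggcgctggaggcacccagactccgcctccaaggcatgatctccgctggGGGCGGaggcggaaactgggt
The Fbln5 stretch held GC boxes on the opposite strand at -221 to -216 and at -48 to -43 from the start site, with 65.2% G and C. The Efemp2 stretch held 1 on the opposite strand at -90 to -85 and 1 on the same strand at -21 to -16, with 59.2% G and C. Of 32851 such stretches in the RefSeq table, 32.7% held a GC box on either strand. Neither gene's stretch held TATAAA (12.4% of all), the AP-1 letters TGANTCA (6.75%) or the SOX core AACAAT (9.42%). These are matches of letters in a window, and the data give no binding. RefSeq stretches were matched for 6 of the 10 genes, which were Fbn1, Mfap2, Fbln5, Efemp2, Ltbp4 and Emilin1.

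Fbln5 was at 358.4, 406.5 and 305.7 FPKM at P8 and 357.8, 356.1 and 396.4 FPKM at P10. It was at 114.8, 127.8 and 140.6 FPKM at P13, 44.58, 62.86 and 72.71 FPKM at P21 and 14.53, 18.41 and 33.09 FPKM at P33, and at 11.34, 10.96 and 11.72 FPKM in adipocytes. After P10, each stage lay below the one before without overlap, and at P33 the lowest library was 14.53 FPKM against at most 11.72 in adipocytes. Efemp2 was at 364.2, 403 and 312.2 FPKM at P8, 330.4, 300.5 and 370.7 FPKM at P10 and 727.8, 724 and 895.3 FPKM at P13. It was at 408.9, 382 and 299.4 FPKM at P21, 105.4, 110.8 and 97.29 FPKM at P33 and 9.8, 8.78 and 12.96 FPKM in adipocytes. P13 was thus the highest stage for Efemp2 in every library, and P33 the lowest stage.

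The ratio of Efemp2 to Fbln5 was 0.991 to 1.02 at P8 and 0.844 to 0.935 at P10, so both fibulins had nearly equal FPKM in all 6 of these libraries. It was 5.67 to 6.37 at P13, 4.12 to 9.17 at P21, 2.94 to 7.26 at P33 and 0.801 to 1.11 in adipocytes. As a log2 ratio of FPKM + 1 it was 2.60 ± 0.10 at P13 and 0.01 ± 0.02 at P8, a difference of 2.59. For P33 against adipocytes it was 2.28 ± 0.66 against -0.12 ± 0.22, a difference of 2.39 (exact permutation p = 0.1 for both, the smallest possible). Between P33 and P21 the ratios overlapped, with a difference of -0.32 (exact permutation p = 0.6) that was 0.058 without P33 replicate 3.

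**Figure D2:**
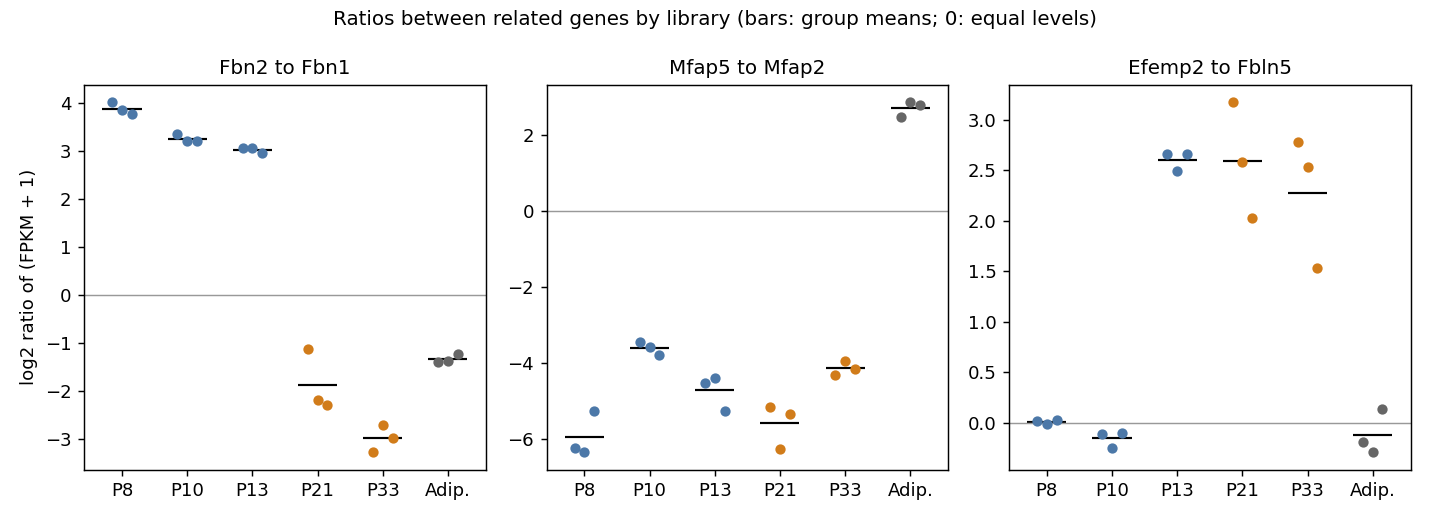
Log2 ratio of FPKM + 1 between 3 pairs of related genes in each library, with 1 point per library and a bar at the group mean; 0 means equal levels. Fbn2 to Fbn1 is above 0 in the 9 sorted libraries and below 0 in the 6 buoyant lipochondrocyte libraries, Mfap5 to Mfap2 is above 0 in adipocytes and below 0 in lipochondrocytes, and Efemp2 to Fbln5 is near 0 at P8, P10 and in adipocytes and above 1.5 in all P13, P21 and P33 libraries.

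Emilin1, a glycoprotein found where elastin meets the microfibrils (ENSMUSG00000029163.9, plus strand, chr5:30913402-30921277), was at 222.8 to 254.6 FPKM at P8, 199.4 to 292.5 at P10, 162.4 to 179 at P13, 68.96 to 89.29 at P21 and 44.74 to 81.5 at P33. The adipocyte libraries held 3.6 to 3.75 FPKM. Neighbouring stages overlapped between P8 and P10 and between P21 and P33, and P13 lay between these pairs.

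Ltbp4 (ENSMUSG00000040488.16, minus strand, chr7:27305136-27337692) encodes a latent TGF-beta binding protein that helps deposit elastin on microfibrils. It varied least over the stages, with a highest mean, at P33, 1.93 times the lowest, at P13. Its main row was at 90.83 to 168.3 FPKM at P8, 86.48 to 141.2 at P10, 66.61 to 95.28 at P13, 101.5 to 169.9 at P21, 90.06 to 230.6 at P33 and 19.56 to 22.58 in adipocytes. A second row bears the same symbol (ENSMUSG00000108715.1), and its identifier was not matched in GENCODE M21. That row was at 0 in all adipocyte libraries and in P33 replicate 3, and between 6.22 and 120.9 FPKM in the other lipochondrocyte libraries. It held 0% to 64.5% of the 2 rows' sum, with no order by stage: at P8 it held 55.4%, 55.1% and 10.9% in the 3 libraries. The sum of both rows was 188.9 to 204.1 FPKM at P8, 134.9 to 176.4 at P10, 132.2 to 187.5 at P13, 117.9 to 235 at P21, 126.3 to 230.6 at P33 and 19.56 to 22.58 in adipocytes. All 5 stages overlapped at least 1 other stage in the sum and all lay above adipocytes. Whether the authors' counting split the reads of 1 gene between these rows cannot be told from FPKM, so the stage pattern of Ltbp4 is uncertain.

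**Figure D3:**
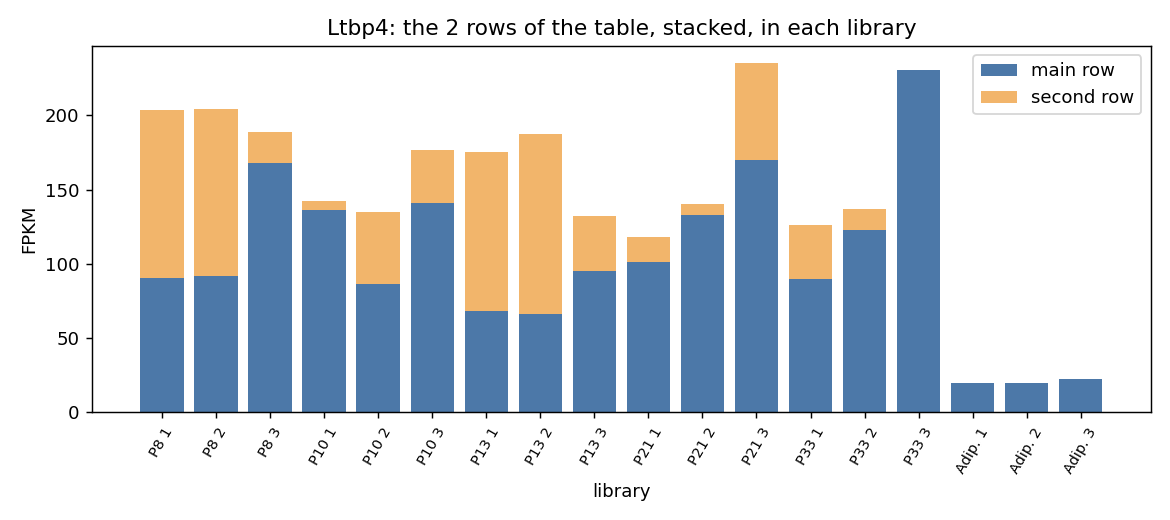
FPKM of the main and the second Ltbp4 row, stacked, in each of the 18 libraries. The second row takes between 0% and 64.5% of the sum and differs as much between libraries of 1 group as between groups, while the sum is 117.9 to 235 FPKM in lipochondrocytes and 19.56 to 22.58 FPKM in adipocytes.

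P33 lipochondrocytes and P33 adipocytes match in age and in isolation. Against adipocytes, 9 of the 10 genes rose and none fell, where 24.0% of all genes tested were called higher and 44.5% lower (3315 and 6151, or 4188 and 4825 with median-of-ratios scaling). The median log2 difference of the 10 genes was 3.35, against -0.28 over all genes. Eln differed by 8.85 (SE 0.25, adjusted p = 8.44e-14), Mfap4 by 8.26 (SE 0.36, adjusted p = 1.87e-11) and Mfap2 by 6.11 (SE 0.32, adjusted p = 1.43e-10). Emilin1 (3.60), Fbn1 (3.49), Efemp2 (3.21), the main row of Ltbp4 (2.67) and Fbn2 (1.84) were higher as well, with adjusted p of at most 2.96e-06. The Fbn2 value depends on the pseudocount, since 2 adipocyte libraries were at 0. Fbln5 differed least of the called genes, by 0.82 (SE 0.23, adjusted p = 0.00567), with means of 22 ± 9.8 FPKM at P33 and 11.3 ± 0.38 in adipocytes, and missed the threshold when these 2 groups were modelled alone (adjusted p = 0.0503). Mfap5 did not pass the test (-0.72, SE 0.33, adjusted p = 0.068), and passed it as lower without P33 replicate 3 (-1.08, adjusted p = 0.00755). The groups did not overlap in 9 of the 10 genes, against 70.7% of all genes. Of the 14 fibroblast and perichondrium markers, 8 were higher and 3 lower in this comparison. They summed to 5373 to 9608 FPKM at P33 against 473.3 to 488.6 in adipocytes, where Tnmd was at 0, and their part in the differences was not tested.

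The earlier stages were set against the same 3 adipocyte libraries, so these comparisons are not independent of one another. Of the 10 genes, 9 were higher and 1 lower at P8, where 19.3% of all genes were called higher and 52.2% lower. At P10 all 10 were higher (16.8% of all genes higher, 58.9% lower). At P13 the count was 9 higher and 1 lower (17.8% and 54.0%), and at P21 it was again 9 and 1 (24.5% and 43.1%). The gene called lower at P8, P13 and P21 was Mfap5, by -1.20, -1.003 and -0.87, and it was higher at P10, by 1.27 (SE 0.33, adjusted p = 0.00285). With median-of-ratios scaling these 3 lower calls were lost (adjusted p = 0.161, 0.447 and 0.147). The P21 call was also lost without each of the P21 replicates 1 and 2 and the adipocyte replicates 1 to 3 (adjusted p = 0.0506 to 0.145), and the P13 call without P13 replicate 3 (adjusted p = 0.0587). The median log2 difference of the 10 genes was 5.32 at P8, 5.30 at P10, 5.32 at P13 and 3.91 at P21, while that of all genes was -0.51, -0.73, -0.56 and -0.25. Eln differed by 12.46 at P8, 12.51 at P10, 12.25 at P13 and 11.23 at P21, each with an SE of 0.25. P21 differs from the P33 adipocytes in age as well, and P8, P10 and P13 in both isolation and age, which cannot be told apart from cell type there. Scaling brought the all-gene medians to between -0.035 and -0.02 and the calls to 4242 higher and 4977 lower at P8, 4414 and 5103 at P10, 4148 and 4797 at P13 and 4105 and 4768 at P21. The unscaled calls were 2668 and 7211, 2326 and 8137, 2462 and 7462, and 3379 and 5952.

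Between P10 and P8, both sorted, 1 of the 10 genes rose and none fell, where 1.90% of all genes were called higher and 9.14% lower. This was Mfap5, with 52.1 ± 2.2 FPKM at P10 and 8.77 ± 2.4 at P8 (2.47, SE 0.33, adjusted p = 4.69e-04), a 5.94-fold difference. The all-gene calls were 262 higher and 1263 lower, or 497 and 125 with median-of-ratios scaling, which moved the all-gene median to 0.003 from -0.19. The median of the 10 genes was 0.07. Mfap4 did not overlap between these stages and did not pass the test (0.62, SE 0.36, adjusted p = 0.285). Fbn1 was not called (0.41, SE 0.16, adjusted p = 0.102), but was called with scaling (0.71, adjusted p = 0.00663) and without P8 replicate 3 (0.60, adjusted p = 0.0182). Of the 14 fibroblast and perichondrium markers 6 were higher at P10 and none lower, and their sum was 6790 to 8942 FPKM at P10 against 3783 to 5230 at P8. Their part in the Mfap5 difference was not tested.

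Between P13 and P10, the 2 fibulins parted. Efemp2 rose at P13 (1.22, SE 0.16, adjusted p = 1.00e-04), with 782.4 ± 98 FPKM against 333.9 ± 35. Fbln5 fell (-1.53, SE 0.23, adjusted p = 3.50e-04), with 127.7 ± 13 FPKM against 370.1 ± 23. The microfibril-associated genes Mfap5 (-2.28, SE 0.33, adjusted p = 2.76e-04), Mfap4 (-2.06, SE 0.36, adjusted p = 0.00107) and Mfap2 (-1.16, SE 0.32, adjusted p = 0.0178) fell with it. That made 1 higher and 4 lower, where 18.6% of all genes were higher and 4.03% lower (2567 and 557, or 1125 and 1183 with median-of-ratios scaling, which moved the all-gene median to 0 from 0.15). The median of the 10 genes was -0.58. With scaling, Emilin1 (-0.80, adjusted p = 0.0106) and Fbn2 (-0.53, adjusted p = 0.0345) were called lower too. Emilin1, not called otherwise (-0.52, adjusted p = 0.0628), also passed without P10 replicate 2 (-0.66, adjusted p = 0.0401). The Mfap2 call was lost without P10 replicate 3 (-1.08, adjusted p = 0.0539) or P13 replicate 2 (-1.07, adjusted p = 0.0656). Eln, Fbn1 and Ltbp4 were not called, at -0.25, -0.03 and -0.64, and Ltbp4 as the sum of both rows was at 0.12 (adjusted p = 0.799). In the same comparison 13 of the 14 fibroblast and perichondrium markers were lower and none higher, with a summed level of 2303 to 3040 FPKM at P13 against 6790 to 8942 at P10. Their part in these falls was not tested.

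P13 against P8 compares sorted stages without P10, whose fibroblast marker sums lay above both (2303 to 3040 FPKM at P13, 3783 to 5230 at P8). Efemp2 again rose (1.12, SE 0.16, adjusted p = 5.70e-04) and Fbln5 fell (-1.47, SE 0.23, adjusted p = 0.00143). Mfap4 fell (-1.44, SE 0.36, adjusted p = 0.0367), a call lost without any 1 of the 6 libraries compared (adjusted p = 0.0644 to 0.114) and with no filter on low values (adjusted p = 0.0788). Mfap2 had no overlap between the stages but was not called (-1.04, SE 0.32, adjusted p = 0.0932), and Mfap5 was not called (0.19, SE 0.33, adjusted p = 0.858). These are 1 higher and 2 lower calls, where 2.69% of all genes were higher and 1.52% lower. The medians were -0.47 for the 10 genes and -0.02 for all genes. Fbn1 was not called (0.39, adjusted p = 0.231), but passed without P8 replicate 3 (0.58, adjusted p = 0.031). Of the fibroblast and perichondrium markers 1 was higher and 3 were lower. The P13 group is shared with the comparison against P10.

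P21 and P13 differ in isolation as well as age, and these cannot be told apart. Between them 8 of the 10 genes were called, 3 higher and 5 lower, where 36.0% of all genes were higher and 7.04% lower. Mfap4 rose by 3.22 (SE 0.36, adjusted p = 7.33e-06), with 1455 ± 682 FPKM at P21 against 142.9 ± 22 at P13, and Fbn1 by 2.64 (SE 0.16, adjusted p = 8.59e-09), with 33.1 ± 5.4 against 4.44 ± 0.33. Fbn2 had the largest fall of the 10 genes (-2.26, SE 0.18, adjusted p = 2.73e-07), with 8.54 ± 3 FPKM against 43.3 ± 4.2. Efemp2 (-1.11, SE 0.16), Fbln5 (-1.10, SE 0.23), Emilin1 (-1.09, SE 0.19) and Eln (-1.02, SE 0.25) fell by nearly equal amounts, with adjusted p of 5.98e-05, 0.00161, 3.40e-04 and 0.00438. Mfap2 was called higher (1.01, SE 0.32, adjusted p = 0.0197), although the groups overlapped. That call was lost with median-of-ratios scaling (0.55, adjusted p = 0.239), in the model of these 2 groups alone (adjusted p = 0.0814), and without P13 replicate 1 or 2 or P21 replicate 2 or 3 (adjusted p = 0.0545 to 0.0996). Ltbp4 was not called on its main row (0.80, SE 0.33, adjusted p = 0.0619) or as the sum of both rows (-0.05, adjusted p = 0.89). Without P21 replicate 1 the main row passed (0.98, adjusted p = 0.0437).

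The all-gene median of this comparison was 0.29, with 4977 genes called higher and 972 lower. With scaling the median was 0.01 and the calls were 2212 and 2214. Relative to scaled libraries, Mfap4 (2.77) and Fbn1 (2.23) still rose, and Fbn2 (-2.68), Efemp2 (-1.56), Fbln5 (-1.55), Emilin1 (-1.54) and Eln (-1.48) fell by more than before. The median of the 10 genes was -0.44 unscaled. Of the 14 fibroblast and perichondrium markers 7 were higher and 2 lower at P21, with sums of 5624 to 10285 FPKM at P21 against 2303 to 3040 at P13. Markers of adipocytes (17.9 to 26 FPKM at P21 against 3 to 3.4 at P13) and macrophages (15.3 to 24.7 against 3 to 3.9) were also higher in sum, at far lower levels. Their part in the differences of the 10 genes was not tested.

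Between P33 and P21, both collected as buoyant cells, 6 of the 10 genes fell and none rose, where 7.17% of all genes were lower and 2.87% higher. The median of the 10 genes was -1.28 and that of all genes -0.02. Eln had the largest fall (-2.38, SE 0.25, adjusted p = 2.50e-05), with 2396 ± 901 FPKM at P33 against 12000 ± 2056 at P21, a level 5.01 times lower. Efemp2 (-1.78, SE 0.16, adjusted p = 5.38e-06), Fbln5 (-1.46, SE 0.23, adjusted p = 9.66e-04) and Fbn2 (-1.36, SE 0.18, adjusted p = 2.31e-04) fell without overlap between the groups. Mfap2 (-1.31, SE 0.32, adjusted p = 0.0168) and Mfap4 (-1.26, SE 0.36, adjusted p = 0.0413) were called with overlapping groups. Both of these calls were lost without P21 replicate 2 or 3 or P33 replicate 1 or 2 (adjusted p = 0.0617 to 0.16), and that of Mfap4 with median-of-ratios scaling (adjusted p = 0.0654). Fbn1 (-0.25, SE 0.16, adjusted p = 0.385), Ltbp4 (0.05, SE 0.33, adjusted p = 0.967) and Mfap5 (0.15, SE 0.33, adjusted p = 0.865) were not called. Emilin1 was not called (-0.49, SE 0.19, adjusted p = 0.125) but passed without P33 replicate 3 (-0.76, adjusted p = 0.00335).

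In a model of the P33 and P21 groups alone, Efemp2 was the 1 gene of the 10 still called (adjusted p = 0.0284), and Eln stood at adjusted p = 0.0642. In that model 126 genes were called in all, against 1388 with the spread shared over the 6 groups. Fibroblast and perichondrium markers were mixed here, with 3 higher and 4 lower, and their sums overlapped (5373 to 9608 FPKM at P33 against 5624 to 10285 at P21). Of the chondrocyte markers 5 of 10 were lower and none higher, while their sums overlapped (22520 to 27819 FPKM at P33 against 17663 to 26467 at P21). With replicate 3 of P21 and of P33 both left out, which was chosen after seeing the data, all 6 of these genes and Emilin1 (-0.67, adjusted p = 0.0113) were called lower, and Eln differed by -2.21 (adjusted p = 8.48e-05).

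**Figure D4:**
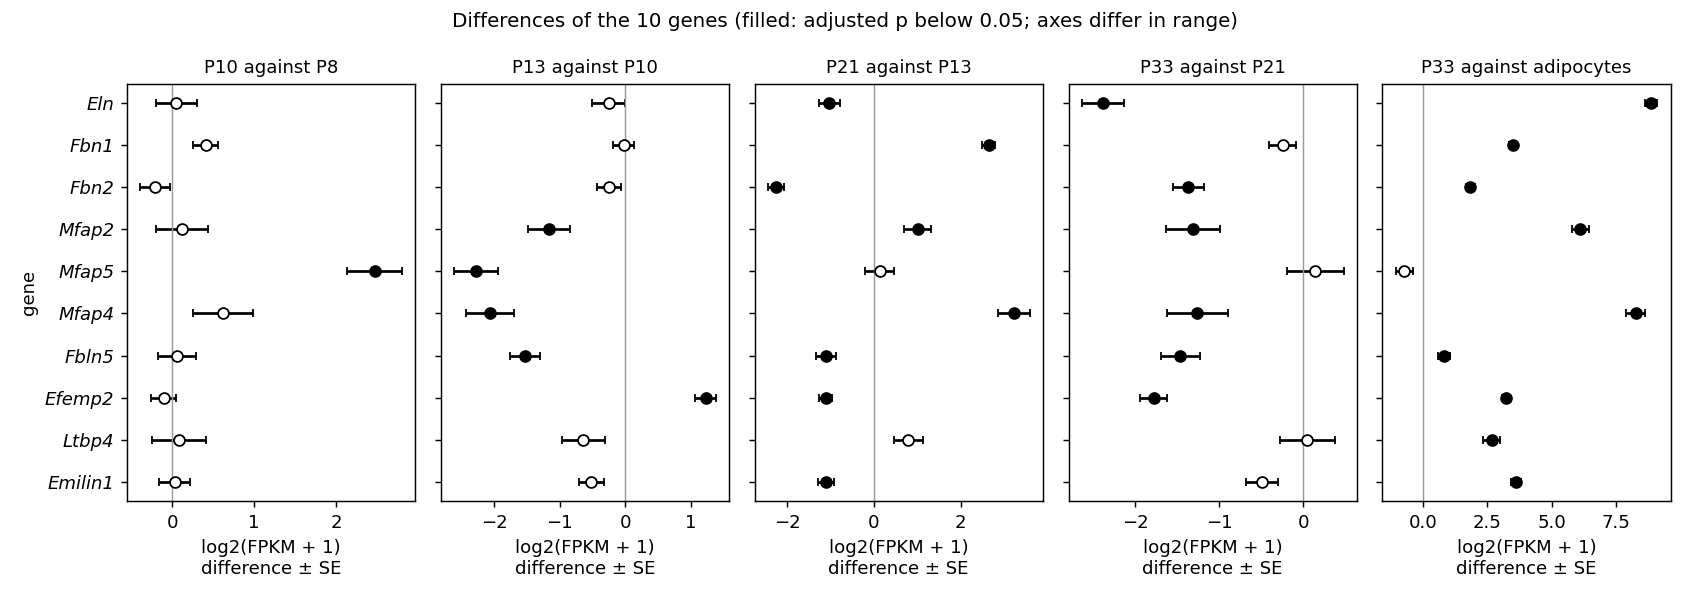
Log2(FPKM + 1) difference of each gene, with its SE, in 5 comparisons named with the later stage or P33 first; filled points have an adjusted p below 0.05, open points do not, and horizontal scales differ between panels. 1 gene is filled for P10 against P8, 5 for P13 against P10, 8 for P21 against P13, 6 for P33 against P21, all of them lower at P33, and 9 for P33 against adipocytes, all of them higher at P33.

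Across the 15 lipochondrocyte libraries, which share the 5 stages and 2 ways of isolation, the genes formed sets by Pearson correlation of log2(FPKM + 1), given here as a description. Fbln5 and Emilin1 had the highest value (r = 0.97), followed by Fbn2 with Emilin1 (0.95), Eln with Fbn2 (0.94) and Fbn2 with Fbln5 (0.93). Fbn1 ran against them, with r of -0.93 to Fbn2, -0.90 to Emilin1, -0.86 to Fbln5 and -0.78 to Eln. Efemp2 was nearer to Eln (0.82) than to its relative Fbln5 (0.57). Mfap4 was nearest to Ltbp4 (0.71), whose level depends on the split between its rows.

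Among 3149 genes that averaged 10 FPKM or more over these 15 libraries, Eln was most alike to the cartilage collagen genes Col9a2 (r = 0.98) and Col9a3 (0.98) and to Lox (0.97), which encodes a lysyl oxidase. Efemp2 was most alike to another chain of the same collagen, Col9a1 (0.97), then to Lcat (0.97) and Sec22b (0.95). Fbn1 was most alike to Ly6c1 (0.99), Tspo (0.99) and Gstm1 (0.99), and Fbn2 to Stard4 (0.99), Tgm2 (0.99) and Agtr2 (0.99). Mfap4 had Pdpn (0.92), Ogn (0.91) and Col1a1 (0.91) nearest, of which Col1a1 is among the fibroblast markers. Mfap5 had Hbegf (0.93), Cd34 (0.89), another of those markers, and Slc3a2 (0.89). Fbln5 was nearest to Igfbp2 (0.98), Ndn (0.98) and Srpx (0.98), and Emilin1 to Tubb5 (0.99), Srpx (0.99) and Txndc5 (0.98). Mfap2 was nearest to Myl9 (0.95), Slc29a1 (0.87) and Pamr1 (0.86), and Ltbp4 to Gnb2 (0.94), Col16a1 (0.91) and Arf5 (0.90).

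A list of 42 other genes, linked to elastic fibres by role or only by gene family, was in the table, and 38 of them passed the filter on low values. It holds cross-linking enzymes, further microfibril-associated proteins, proteoglycans, elastin-degrading proteases and integrins. At P33 against adipocytes 25 were higher and 9 lower (median 1.196), where 24.0% of all genes were higher and 44.5% lower (median -0.28). The largest rises were the proteoglycan Bgn (7.83, with 4726 ± 186 FPKM against 19.7 ± 1.4), the lysyl oxidase family gene Loxl4 (5.63, SE 0.28) and the elastolytic protease gene Ctsk (4.77, SE 0.16). The largest falls were Mmp12 (-3.66), which encodes macrophage elastase, Ctss (-3.55), which encodes cathepsin S, and the fibulin Efemp1 (-3.42). Macrophage markers were lower as well in this comparison, 8 of 8, with sums of 28.1 to 54.2 FPKM at P33 against 703.9 to 762.1 in adipocytes. Their part in the protease values was not tested. By role, 5 of 6 cross-linking genes were higher and none lower, and of 16 further microfibril-associated genes 11 were higher and 4 lower. The 7 elastin-degrading genes were split into 3 higher and 4 lower.

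Against the same adipocytes, the counts of the 38 were 24 higher and 7 lower at P8, 23 and 8 at P10, 21 and 12 at P13 and 25 and 8 at P21. Of all genes, 19.3% were higher and 52.2% lower at P8, and 16.8% and 58.9% at P10. The all-gene shares were 17.8% and 54.0% at P13 and 24.5% and 43.1% at P21. Bgn and Lox were among the 3 largest rises at each of these stages, and Ctss, Mmp12 and Efemp1 were the 3 largest falls. The other of the 3 rises was Mmp14, a membrane-bound matrix metalloproteinase, at P8 (4.71) and P10 (4.89) and Loxl4 at P13 (6.61) and P21 (6.02).

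Between P10 and P8, 4 of the 38 were higher and 1 lower (median -0.06), where 1.90% of all genes were higher and 9.14% lower (median -0.19). The rises were led by Dcn, which encodes the collagen-binding proteoglycan decorin (2.04, SE 0.27, adjusted p = 4.18e-04), Emilin2 (0.92) and Efemp1 (0.85), and Mfap3 was lower (-0.58). The Mfap3 call was lost with scaling (-0.32, adjusted p = 0.181), with the 2 groups alone (adjusted p = 0.0854) and without P8 replicate 2 or P10 replicate 1 (adjusted p = 0.0508 and 0.0545). Between P13 and P10, 2 were higher, Loxl4 (1.86, SE 0.28, adjusted p = 3.30e-04) and Mfap3 (0.50), and 11 lower, led by Vcan, which encodes versican (-1.69), Dcn (-1.58) and Emilin3 (-1.28). The median was -0.29, against 0.15 over all genes, of which 18.6% were higher and 4.03% lower. With scaling Mfap3 was not called (0.28, adjusted p = 0.128). Between P13 and P8, Loxl4 was the 1 higher gene (2.00, SE 0.28, adjusted p = 5.51e-04), with 114 ± 18 FPKM at P13 against 27.4 ± 0.41 at P8, and 4 were lower, led by Emilin3 (-1.52), Ltbp2 (-1.28) and Fbln2 (-1.23), with a median of -0.18. Of all genes, 2.69% were higher at P13 than at P8 and 1.52% lower (median -0.02). The Fbln2 call was lost without any 1 of the 6 libraries compared (adjusted p = 0.0553 to 0.0941). Loxl4 and Efemp2 thus both stood higher at P13 than at P8.

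Between P21 and P13, 16 of the 38 were higher and 5 lower (median 0.23), where 36.0% of all genes were higher and 7.04% lower (median 0.29). The rises were led by Dcn (2.98, SE 0.27), Adamtsl2, a microfibril-binding protein (2.90, SE 0.34), and the latent TGF-beta binding protein gene Ltbp1 (2.84, SE 0.17). The falls were led by Mmp14 (-1.92, SE 0.16), Vcan (-1.67, SE 0.22) and Lox (-0.63, SE 0.24, adjusted p = 0.0457). The Lox call was lost without P13 replicate 2 or 3 or P21 replicate 2 or 3 (adjusted p = 0.115 to 0.181), with the 2 groups alone (adjusted p = 0.102) and with the replicate block (adjusted p = 0.0588). Between P33 and P21, 2 were higher, Dcn (1.31, adjusted p = 0.00634) and Ctss (0.76, adjusted p = 4.86e-04), and 4 lower (median -0.11). Of all genes, 2.87% were higher at P33 than at P21 and 7.17% lower (median -0.02). Lox had the largest fall (-2.92, SE 0.24, adjusted p = 2.80e-06), with 69.6 ± 22 FPKM at P33 against 529.5 ± 155 at P21. Adamtsl2 (-1.27, adjusted p = 0.0287) and Adamts17 (-0.83, adjusted p = 0.00337) fell with it. The Adamtsl2 call was lost without P21 replicate 2 or 3 or P33 replicate 1 or 2 (adjusted p = 0.101 to 0.113) and with a pseudocount of 0.1 (adjusted p = 0.0833). With the 2 groups alone, Lox was called, and Dcn (adjusted p = 0.23), Ctss (0.0867), Adamtsl2 (0.315) and Adamts17 (0.124) were not. Lox, whose product cross-links elastin, and Eln itself thus both were lower at P33 than at P21. The other 5 of the 6 cross-linking genes were not called between these stages. Macrophage markers were higher at P33 than at P21 in 4 of 8 genes, with sums of 28.1 to 54.2 FPKM against 15.3 to 24.7, and the part of such cells in the Ctss value was not tested.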

How the data were processed

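The deposited table holds FPKM calculated by the authors, 1 column per library. The submitters' processing notes name the aligner STAR 2.4.2a and the build mm10; a quantifier or annotation is not given in the sources used here. Another deposited table lists, per the file headers, each library's count of total reads and the percent paired and aligned. FPKM give no counts per gene, so no counting interval is given. Of the identifiers, 98.95% are in GENCODE M21 (GRCm38), the source of the coordinates.

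The 13815 genes that reached 1 FPKM in 3 or more of the 18 libraries were tested. Their log2(FPKM + 1), a pseudocount of 1, was fitted with limma 3.58.1 in R 4.3.3 as 6 group means with a mean-variance trend. The 10 comparisons were tested two-sided and adjusted by Benjamini-Hochberg within each, and an adjusted p below 0.05 was called. The median SE was 0.17. The fit was tested on simulated data for P13 against P8 only. Those data had independent normal noise and no shift of whole libraries, so that test does not cover scaling or batch. Ratios of related genes were compared by exact permutation. Promoters are RefSeq's.

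The text names all 10 genes, up to 3 called genes per direction from the list of other elastic fibre genes, and the 3 genes most alike to each of the 10. The genes and lists were chosen with earlier results of these data known. Alternatives were pseudocounts of 0.1 and 5, no filter, a filter of 5 FPKM, median-of-ratios scaling, models of the 2 groups alone, the replicate number as a block, and leaving out each library. The sum of the Ltbp4 rows and leaving out replicate 3 of P21 and P33 together were added after seeing the data.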

Additional observations from a re-analysis of the deposited data

How the results depend on the processing

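Of 840 values of the 10 genes under alternatives other than leaving out 1 library, 813 kept their side of the threshold, 16 lost a call and 11 gained one. Of 600 values with 1 library left out, 568 kept their side, 26 lost a call and 6 gained one. No called value changed sign, but 8 and 19 uncalled ones did. The 8 were Fbn2 (0.12, against -0.21) and Efemp2 (0.23, against -0.105) for P10 against P8 and Mfap5 (-0.27, against 0.14) for P21 against P13 with scaling, Ltbp4 as the sum of its rows for P10 against P8 (-0.40, against 0.08), P13 against P10 (0.12) and P21 against P13 (-0.05), and, without replicate 3 of P21 and P33, Mfap5 for P21 against P13 (-0.28) and Ltbp4 for P33 against P21 (-0.14, against 0.05). The lost and gained calls stand beside each gene in the report, except those given here, and the cause was not tested. With a filter of 5 FPKM, Emilin1 was called lower for P13 against P10 (-0.52, adjusted p = 0.0469), and for P21 against adipocytes the Mfap5 call was lost with no filter (adjusted p = 0.0542) or the 2 groups alone (adjusted p = 0.077). With no filter the Mfap4 call of P33 against P21 was lost (adjusted p = 0.0725). In the 2-group model of P33 against P21, the calls of Fbn2 (adjusted p = 0.0939), Fbln5 (0.134), Mfap2 (0.266) and Mfap4 (0.351) were lost beside that of Eln. The call of Ltbp4 was gained for P21 against P13 with the 2 groups alone (adjusted p = 0.0458). Without replicate 3 of P21 and P33 together, Mfap5 was called lower for P33 against adipocytes (-1.08, adjusted p = 2.32e-04). For the other elastic fibre genes named, a check chosen after seeing the data, 732 of 763 values kept their side of the threshold, 31 lost a call and none reversed. Beside those in the report, calls were lost with no filter for Fbln2 at P13 against P8 (adjusted p = 0.0534), Lox at P21 against P13 (0.0792) and Adamtsl2 at P33 against P21 (0.0545), with the 2 groups alone for Ltbp2 at P13 against P8 (0.0608), and without P21 and P33 replicate 3 together for Lox at P21 against P13 (0.0684).

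Counts over the 10 genes moved by more than 1.5 times for P10 against P8 (2 with scaling, 1 to 2 with 1 library left out, against 1) and for P33 against P21 (1 with the 2 groups alone, 4 to 7 with 1 library left out, against 6). Over all genes, P10 against P8 had 974 calls with a pseudocount of 5, 985 with no filter, 622 with scaling, 351 with the 2 groups alone and 505 to 1494 with 1 library left out, against 1525. P13 against P8 had 347 with the 2 groups alone and 339 to 508 with 1 library left out, against 581. P33 against P21 had 126 and 894 to 1779, against 1388, and P13 against P10 had 1921 to 2832 with 1 library left out, against 3124. A filter of 5 FPKM, which tests fewer genes, gave 6189 calls at P33, 6150 at P21, 6552 at P13, 6837 at P10 and 6547 at P8 against adipocytes, where the counts had been 9466, 9331, 9924, 10463 and 9879. The difference in the log2 ratio of Fbn2 to Fbn1 for P33 against adipocytes was -1.65, and 0.62 with a pseudocount of 0.1, since Fbn2 was at or near 0 in adipocytes and the pseudocount sets its ratio. The Efemp2 to Fbln5 difference of P33 against P21 ran from -0.60 to 0.058 with 1 library left out.

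The labels number libraries 1 to 3 in each group without saying that a number is shared. Same-numbered libraries correlated in their deviations at -0.168 to 0.206, and in no comparison were all 3 pairs above 0.1. With 3 libraries per group, these values cannot show whether a number stands for a shared batch. With the replicate number as a block, 10 of the 10 genes were called for P33, P21, P13, P10 and P8 against adipocytes, 1 for P10 against P8, 7 for P13 against P10, 3 for P13 against P8, 9 for P21 against P13 and 6 for P33 against P21. Over all genes the block gave 9571, 9460, 10036, 10550 and 9981 calls for P33, P21, P13, P10 and P8 against adipocytes, 1809 for P10 against P8, 3361 for P13 against P10, 661 for P13 against P8, 6105 for P21 against P13 and 1546 for P33 against P21, of 13815 tested. The block added calls for Mfap5 at P33 against adipocytes (adjusted p = 0.044), for Ltbp4 (0.0437) and Emilin1 (0.0243) at P13 against P10 and for Ltbp4 at P21 against P13 (0.00879).

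With 3 libraries per group, a permutation of single values cannot reach 0.05, and a gene listed at 0 FPKM is not shown to be absent.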
